A study of Mus musculus with 2 samples.

Results

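The 10 genes described here code for the channels, buffers, exchangers, pumps and sensor that handle calcium and magnesium in the distal nephron of the mouse kidney: Trpv5, Calb1, S100g, Slc8a1, Atp2b1, Casr, Pvalb, Trpm6, Trpm7 and Cnnm2. They were chosen by name, and all 10 were among the 32285 genes counted in each library. The data were single-nucleus RNA counts from frozen kidneys of male T1+/+ mice, 11 weeks old at surgery and sampled 4 weeks after it (T1+/+ is the submitters' label). One library came from 5/6 nephrectomy, in which the right kidney was taken out and both poles of the left kidney were ligated 1 week later. The other came from sham surgery, in which both flanks were opened and closed. The sources used here do not state how many mice each library holds, or which piece of the remnant kidney was taken.

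Calcium that the earlier nephron leaves in the urine is recovered in the late distal convoluted tubule (DCT) and the connecting tubule (CNT). There it enters through the apical channel TRPV5, is carried across the cytosol by calbindins, and leaves through the sodium-calcium exchanger NCX1 (Slc8a1) and the calcium pump PMCA1 (Atp2b1). Magnesium is recovered by active transport in the DCT, where it enters through channels built from TRPM6 and TRPM7. CNNM2 is a basolateral membrane protein needed for magnesium reabsorption, and loss of human CNNM2 or TRPM6 function causes magnesium wasting.

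The promoter windows of 4 members are printed because they show the 2 sides of the family: Trpv5 and S100g, which were highest in CNT-like nuclei, and Trpm6 and Cnnm2, which were highest in DCT-like nuclei. Each runs 5′ to 3′ from 250 bases before to 50 bases after the annotated start, from RefSeq on GRCm38.p6, and capitals mark the motifs described after them. RefSeq windows were given for 9 of the 10 members. The windows are Trpv5 at chr6:41680674-41680973 on the minus strand, S100g at chrX:162964550-162964849 on the minus strand, Trpm6 at chr19:18749480-18749779 on the plus strand and Cnnm2 at chr19:46761359-46761658 on the plus strand.

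Trpv5: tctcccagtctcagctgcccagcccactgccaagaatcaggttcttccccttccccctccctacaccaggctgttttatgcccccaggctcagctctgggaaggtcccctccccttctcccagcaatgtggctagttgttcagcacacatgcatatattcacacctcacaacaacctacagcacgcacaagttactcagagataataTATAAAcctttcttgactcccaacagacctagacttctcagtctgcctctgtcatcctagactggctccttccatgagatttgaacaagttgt
S100g: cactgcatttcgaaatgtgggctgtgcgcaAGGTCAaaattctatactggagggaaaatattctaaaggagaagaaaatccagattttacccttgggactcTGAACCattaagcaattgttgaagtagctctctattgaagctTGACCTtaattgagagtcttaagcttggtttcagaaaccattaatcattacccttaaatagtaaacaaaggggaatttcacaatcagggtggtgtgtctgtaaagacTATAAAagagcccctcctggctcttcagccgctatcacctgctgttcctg
Trpm6: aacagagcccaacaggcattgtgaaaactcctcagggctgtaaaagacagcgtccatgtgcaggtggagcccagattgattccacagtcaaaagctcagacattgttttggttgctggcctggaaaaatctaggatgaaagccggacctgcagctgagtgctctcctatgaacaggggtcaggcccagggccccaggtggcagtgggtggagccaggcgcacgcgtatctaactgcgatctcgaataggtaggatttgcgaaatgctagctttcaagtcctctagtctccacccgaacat
Cnnm2: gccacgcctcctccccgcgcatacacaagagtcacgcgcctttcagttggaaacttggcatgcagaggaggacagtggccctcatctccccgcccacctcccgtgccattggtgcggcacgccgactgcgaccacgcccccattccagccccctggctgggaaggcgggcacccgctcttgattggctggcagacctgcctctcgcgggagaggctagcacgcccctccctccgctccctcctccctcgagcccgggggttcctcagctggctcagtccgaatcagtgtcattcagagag

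Motifs searched on both strands of each window included TATAAA (the core of the TATA box), GGTTCA (a half-site of the vitamin D response element) and AGGTCA (a half-site of many nuclear receptors). Of 32851 RefSeq promoter windows of 300 bases, 13.6% held TATAAA, 10.4% held GGTTCA and 16.3% held AGGTCA. The Trpv5 window held TATAAA, which began 43 bases before the RefSeq start. The gene spans given below come from the GENCODE annotation, whose starts can differ. GENCODE starts Trpv5 farther upstream, at 41680769, so this TATAAA lies just inside that span. It starts Trpm6 at 18749983, past the end of the Trpm6 window. The S100g window held TATAAA at the annotated start, GGTTCA on the reverse strand 149 bases before it, and AGGTCA 220 bases before it on the forward strand and 107 bases before it on the reverse strand. None of these motifs was found in the windows of the other 7 members that had one, including Trpm6 and Cnnm2. A match describes the letters of the window and not a bound site.

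The libraries held 3299 nephrectomy and 3084 sham barcodes with medians of 6844 and 5140 UMIs (unique molecular identifiers, each standing for 1 captured RNA molecule), and they shared 2 barcode sequences. After filters, 3063 nephrectomy and 2846 sham nuclei remained. Nuclei were sorted into classes by marker genes, with all members kept out of the clustering, and 10 classes had at least 30 nuclei in each library. DCT-like nuclei numbered 215 in nephrectomy and 137 in sham, which was 7.02% against 4.81% of the nuclei kept. CNT-like nuclei numbered 139 in nephrectomy and 107 in sham, or 4.54% against 3.76%. All 14 DCT markers were detected in the DCT-like nuclei of both libraries, among them the thiazide-sensitive cotransporter gene Slc12a3 at 11667 CPM (UMIs per 1000000 UMIs of the class in that library) in nephrectomy and 11932 in sham. All 7 CNT markers were detected in the CNT-like nuclei of both libraries. Detection is no separate check of the names, since the classes were named from these markers. All 14 DCT markers were also detected in thick ascending limb-like nuclei of both libraries. Their summed level there was 17020 CPM in nephrectomy and 13744 in sham, against 31059 and 28676 in DCT-like nuclei. The CNT markers summed to 14882 and 13160 in CNT-like nuclei, against 3495 and 3776 in DCT-like nuclei. With 1 library per group there was no replicate check and no test. Square brackets give exact 95% intervals (Poisson for levels, conditional binomial for ratios), which cover counting error only.

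The apical entry channel gene Trpv5 (minus strand of chromosome 6, 41652173 to 41680769, GRCm38) was highest in CNT-like nuclei, at 336 CPM in nephrectomy [306 to 368] and 258 in sham [223 to 298]. DCT-like nuclei followed with 76.5 in nephrectomy and 58.5 in sham. CNT-like over DCT-like levels stood at 4.39 [3.67 to 5.27] in nephrectomy and 4.42 [3.32 to 5.93] in sham, so the step between the segments was alike in both libraries within counting error. Principal-like nuclei of the collecting duct had 43.6 in nephrectomy and 13.4 in sham, where B-type intercalated-like nuclei had 27.8 with an interval that overlapped the DCT-like one. Both distal classes together held 90.5% of the 705 Trpv5 UMIs in nephrectomy and 81.9% of the 310 in sham. A Trpv5 UMI was seen in 72.7% of CNT-like nuclei in nephrectomy and 57.0% in sham, against 1.86% and 0.972% of proximal tubule-like nuclei, a class that should lack it, at median depths of 9266 and 6243 UMIs in CNT-like nuclei and 10389 and 9120 UMIs in proximal tubule-like nuclei. The proximal tubule-like class was filled from different clusters in the 2 libraries: one cluster held 393 nephrectomy and 93 sham nuclei, and another held 1 and 258. With every nucleus thinned to 1000 UMIs, the CNT-like shares were 22.1% of 136 nephrectomy nuclei and 17.1% of 105 sham nuclei, and 3 nephrectomy and 2 sham nuclei were too shallow to enter.

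Trpv5 was higher in nephrectomy in both distal classes, by a ratio of 1.30 [1.10 to 1.55] in CNT-like nuclei on 471 nephrectomy and 187 sham UMIs. The ratio in DCT-like nuclei was 1.31 [0.980 to 1.76] on 167 nephrectomy and 67 sham UMIs, an interval that reaches 1. It was 0.793 there when the distal nuclei were split by their marker UMIs in place of clusters, 1.59 when the markers Egfem1 and Abca13 were left out of that split, and 1.88 without the 3 nuclei richest in Trpv5. Neither ratio passed the 1.5-fold used here to count a gene as higher or lower.

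The calcium buffers differed between the segments. Calb1 (plus strand of chromosome 4, 15881264 to 15908064), which codes for calbindin-D28k, had 2946 CPM in nephrectomy and 2425 in sham in DCT-like nuclei. In CNT-like nuclei it had 3175 in nephrectomy and 4062 in sham. Its ratio was therefore 1.21 [1.16 to 1.27] in DCT-like and 0.782 [0.746 to 0.819] in CNT-like nuclei. CNT-like nuclei exceeded DCT-like nuclei by 1.08 in nephrectomy [1.04 to 1.12] and by 1.67 in sham [1.59 to 1.76]: the 2 segments stood closer together in nephrectomy.

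S100g, which codes for calbindin-D9k, had 1167 CPM in nephrectomy and 1432 in sham in CNT-like nuclei, a ratio of 0.815 [0.753 to 0.882]. In DCT-like nuclei it had 710 in nephrectomy and 745 in sham, and the interval of the ratio held 1 (0.953 [0.876 to 1.04]). Both distal classes together held 40.7% of its UMIs in nephrectomy and 38.2% in sham. Proximal tubule-like nuclei had 164 CPM of it in nephrectomy and 119 in sham. Mural-like nuclei had 659 and 604, with free RNA estimated at 44.8% and 79.9% of their UMIs. B-type intercalated-like nuclei had 496 in nephrectomy and 648 in sham. The DCT-like interval overlapped the mural-like one in nephrectomy and the B-type intercalated-like one in sham. The gene lies on the minus strand of chromosome X (162961992 to 162964599) wholly inside Ctps2, which is read from the opposite strand, and whether the counting used strand is not stated, so a part of its counts could come from Ctps2.

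Pvalb, which codes for the calcium buffer parvalbumin of the early DCT, was sparse. DCT-like nuclei held 65 UMIs in nephrectomy and 82 in sham, or 29.8 CPM [23.0 to 38.0] against 71.6 CPM [56.9 to 88.9], a ratio of 0.416 [0.296 to 0.583]. It was seen in 42 of 215 nephrectomy and 44 of 137 sham DCT-like nuclei. CNT-like nuclei held 3 UMIs in nephrectomy and 0 in sham, so no fold is given there. After thinning to 1000 UMIs only 12 of 215 nephrectomy and 6 of 137 sham DCT-like nuclei still held a Pvalb UMI, and the ratio turned to 1.27.

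**Figure D1:**
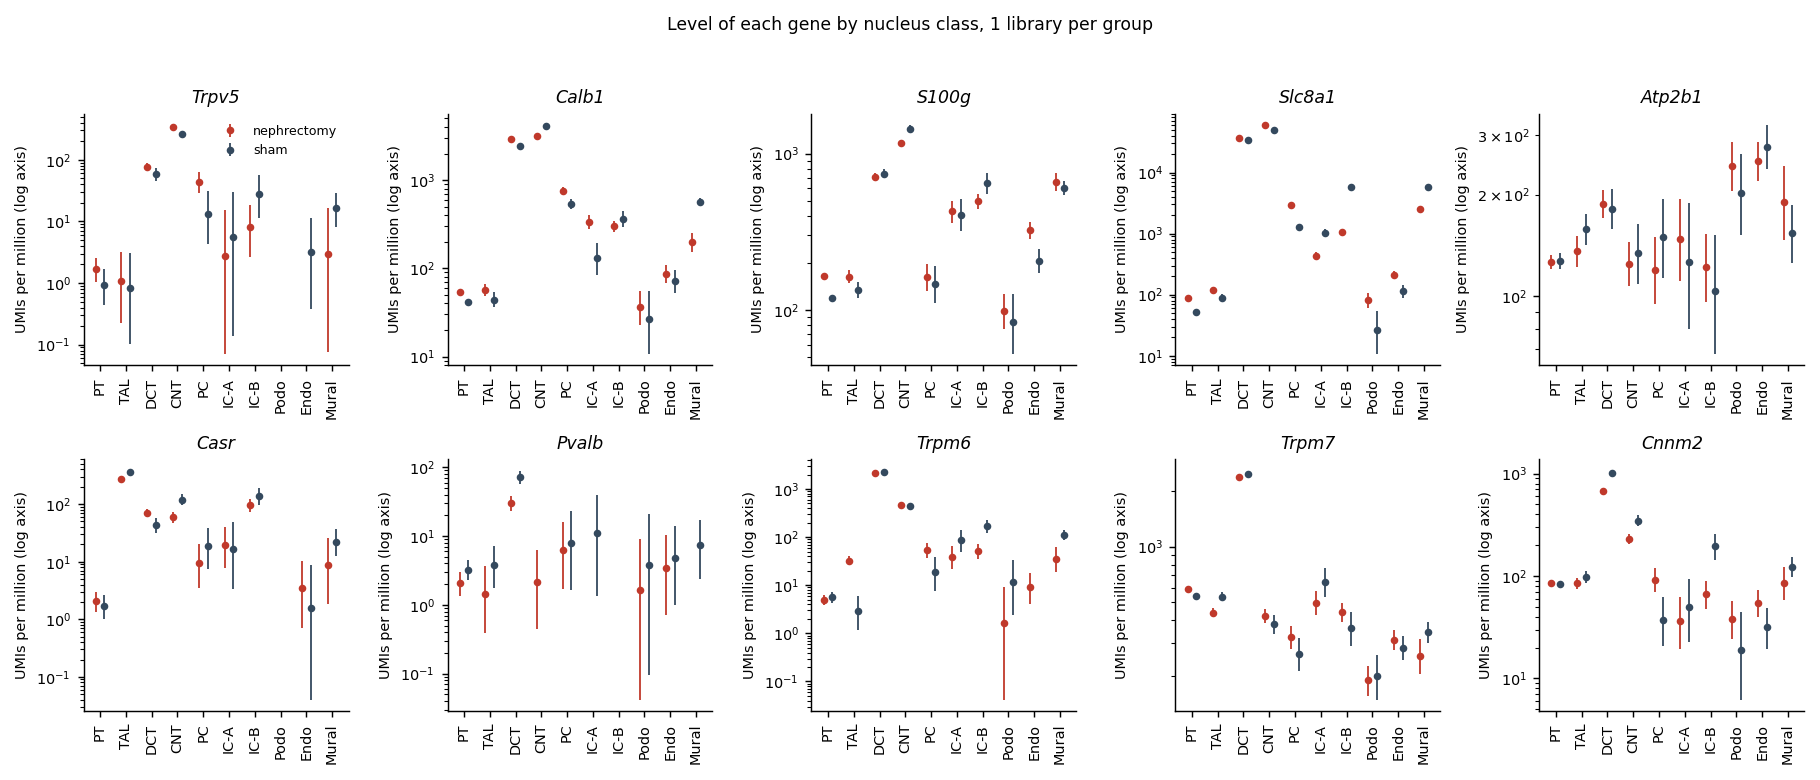
Level of each of the 10 genes in 10 classes of nuclei, in CPM on log axes that differ between panels. PT is proximal tubule-like, TAL thick ascending limb-like, PC principal-like, IC-A and IC-B intercalated-like, Podo podocyte-like and Endo endothelial-like; red points are nephrectomy, dark points sham, lines are 95% Poisson intervals, and levels of 0 are not drawn. Trpv5, Calb1, S100g and Slc8a1 are highest in CNT-like nuclei, and Pvalb, Trpm6, Trpm7 and Cnnm2 in DCT-like nuclei, in both libraries.

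Of the extrusion genes, Slc8a1 (minus strand of chromosome 17, 81373105 to 81738377) made up 5.96% of all UMIs of CNT-like nuclei in nephrectomy and 5.03% in sham. Its median was 421 UMIs per nucleus in nephrectomy and 230 in sham in CNT-like nuclei, against 32 and 50 in DCT-like nuclei. These medians are not scaled for depth. Median depths were 9266 and 6243 UMIs in CNT-like and 9498 and 7866 in DCT-like nuclei. The ratio of its CPM was 1.18 [1.17 to 1.20] in CNT-like and 1.08 [1.07 to 1.10] in DCT-like nuclei, where the unscaled medians ran the other way. These intervals are narrow because the gene was counted so often, and they say nothing of the spread between animals. The 10 members together made up 6.56% of CNT-like UMIs in nephrectomy and 5.75% in sham. In DCT-like nuclei the ratio of Slc8a1 was 0.893 when nuclei were split by marker UMIs and 0.959 without the deepest 5% of nuclei, so its direction there was not stable. The gene spans 365 kb, of which 5.15% is exonic, and 2 opposite-strand genes overlap it over 3190 and 161 bases.

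Atp2b1 (plus strand of chromosome 10, 98914406 to 99026143) was not confined to the distal nephron. It was highest in endothelial-like nuclei, at 251 CPM in nephrectomy and 277 in sham, with intervals that overlapped those of podocyte-like nuclei (243 and 202). DCT-like nuclei had 188 in nephrectomy and 182 in sham, and CNT-like nuclei 125 and 134. The intervals of its ratio held 1 in both segments, at 1.03 [0.873 to 1.23] in DCT-like and 0.932 [0.723 to 1.21] in CNT-like nuclei.

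Casr (minus strand of chromosome 16, 36493696 to 36562141), the calcium-sensing receptor, was highest in thick ascending limb-like nuclei, its main site in the nephron, at 268 CPM in nephrectomy [249.1 to 288] and 355 in sham [331 to 380]. The ratio there was 0.755 [0.683 to 0.835]. That class joined 2 clusters in different proportions: within one Casr had a ratio of 0.664 [0.592 to 0.745] on 209 nephrectomy and 198 sham nuclei, and within the other 0.751 [0.609 to 0.925] on 151 and 195. In DCT-like nuclei Casr had 69.2 in nephrectomy and 42.8 in sham, a ratio of 1.62 [1.16 to 2.28] on 151 nephrectomy and 49 sham UMIs, with 1.41 to 2.12 over 12 alternatives. Within ranges 1 to 3 of 5 by marker position (from DCT markers to CNT markers) its ratio was 1.18, 1.57 and 1.03, each with an interval that holds 1. In CNT-like nuclei it had 59.2 in nephrectomy and 120 in sham, a ratio of 0.493 [0.361 to 0.674] on 83 nephrectomy and 87 sham UMIs, with 0.386 to 0.620 over 12 alternatives. The 6 thick ascending limb markers summed to 188 CPM in nephrectomy and 454 in sham in the CNT-like nuclei, where 5 were detected in nephrectomy and 6 in sham, and to 348 and 492 in the DCT-like nuclei, where all 6 were detected in both. Their part in the Casr ratios was not tested.

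Both magnesium channel genes had their highest level in DCT-like nuclei in both libraries. Trpm6 (plus strand of chromosome 19, 18749983 to 18892511) had 2136 CPM in nephrectomy [2075 to 2198] and 2302 in sham [2215 to 2392] in DCT-like nuclei. CNT-like nuclei had 461 and 439. DCT-like over CNT-like levels came to 4.63 [4.27 to 5.04] in nephrectomy and 5.24 [4.66 to 5.91] in sham. Trpm7 (minus strand of chromosome 2, 126791565 to 126876230), which codes for a widely expressed channel kinase, had 2374 in nephrectomy and 2484 in sham in DCT-like nuclei. The next highest class was proximal tubule-like in nephrectomy, at 590, and A-type intercalated-like in sham, at 642, where its interval overlapped that of proximal tubule-like nuclei. Trpm7 was thus seen in every class and still stood highest in the DCT. Ratios in DCT-like nuclei were 0.928 [0.884 to 0.973] for Trpm6 and 0.956 [0.913 to 1.00] for Trpm7, both close to 1. In CNT-like nuclei they were 1.05 [0.916 to 1.20] and 1.11 [0.963 to 1.29], with intervals that hold 1.

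Cnnm2 (plus strand of chromosome 19, 46761596 to 46880192) departed from its channel partners in its ratios in DCT-like and CNT-like nuclei. DCT-like nuclei had 671 CPM in nephrectomy [637 to 706] and 1006 in sham [949 to 1066], a ratio of 0.667 [0.617 to 0.721] on 1464 and 1152 UMIs. CNT-like nuclei had 231 in nephrectomy [206 to 257] and 348 in sham [306 to 394], a ratio of 0.662 [0.560 to 0.784] on 323 and 252 UMIs. It was lower in nephrectomy in both segments, and DCT-like over CNT-like levels were 2.91 and 2.89 in the 2 libraries. A Cnnm2 UMI was seen in 87.0% of DCT-like nuclei in nephrectomy and 94.2% in sham, and after thinning in 39.5% and 52.6%. In proximal tubule-like nuclei, with the unequal clusters given for Trpv5, the ratio was 1.02 [0.934 to 1.12], and over the whole libraries 0.943 [0.898 to 0.991]. The ratio in DCT-like nuclei lay just short of the 1.5-fold limit and the one in CNT-like nuclei just past it. Over 12 alternatives each, they ran from 0.605 to 0.743 and from 0.589 to 0.819, all below 1.

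**Figure D2:**
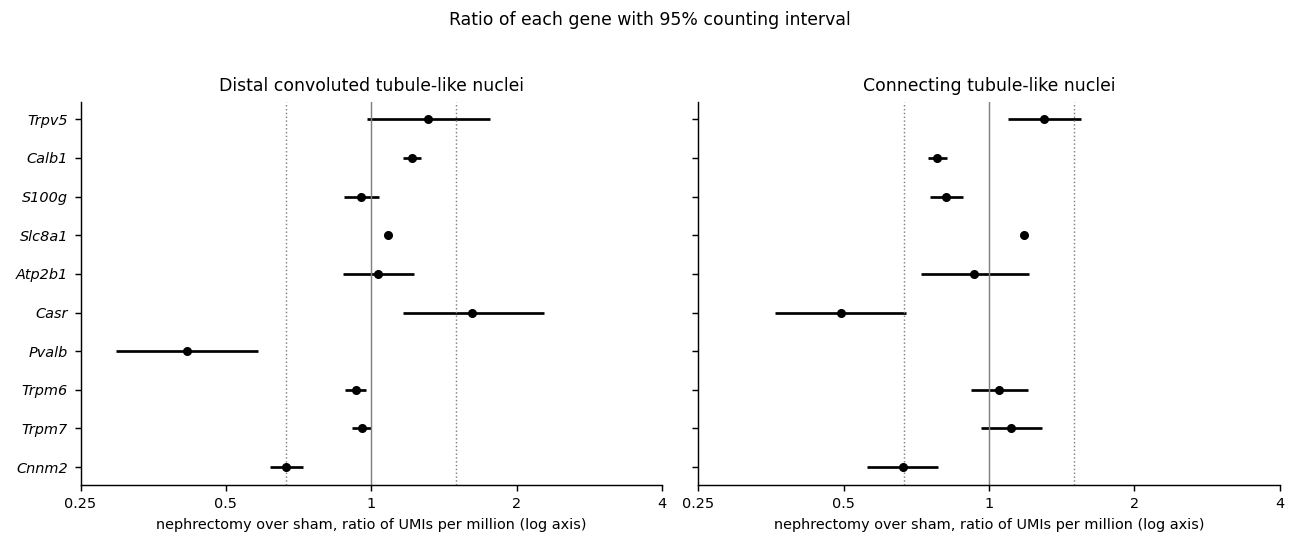
Ratio of CPM, nephrectomy over sham, on a log axis for each gene with at least 20 UMIs in DCT-like (left) and CNT-like nuclei (right). Points are ratios, bars 95% counting intervals, the solid line is 1 and the dotted lines mark 1.5-fold in either direction; Pvalb had too few UMIs in CNT-like nuclei. Cnnm2 sits near 0.667 on both sides, while Casr sits at 1.62 on the left and 0.493 on the right.

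By the 1.5-fold rule, 1 of 10 members was higher in nephrectomy in DCT-like nuclei (Casr), where 9.85% of all 10316 genes with at least 20 UMIs were, and 1 was lower (Pvalb), where 13.1% of all genes were. In CNT-like nuclei 0 of 9 members were higher against 13.5% of 9349 genes, and 2 were lower (Casr and Cnnm2) against 13.9%. The median log2 ratio of the members was -0.01 in DCT-like and -0.10 in CNT-like nuclei, beside -0.01 and 0.01 over all genes. All of these members also had at least 100 UMIs. Of genes with at least 100 UMIs, 5.63% of 5153 were higher and 6.37% lower in DCT-like nuclei. In CNT-like nuclei 8.22% of 3867 such genes were higher and 6.54% lower. With 0, 1 or 2 members past the limit, the counts are too small to tell whether the members as a group stood apart.

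DCT and CNT grade into each other, so the 598 distal nuclei were also placed in 5 ranges by their marker UMIs, from DCT markers to CNT markers. The ranges held near-equal numbers of nuclei but differed in width: on a scale from 0 to 1, range 1 ended at 0.051 and range 3 ran from 0.236 to 0.680. The members and the other genes of the pathway lists took no part in the placing. Nephrectomy had 83, 65, 70, 80 and 56 nuclei in the 5 ranges and sham 37, 54, 50, 39 and 64, so the mix along the segment differed between the libraries. Position was not fully matched within a range either. The DCT marker Slc12a3 had 742 CPM in nephrectomy and 1412 in sham in range 4, a ratio of 0.526 [0.465 to 0.595]. Its ratios in ranges 1 to 3 were 1.01, 0.962 and 0.983, and 0.764 [0.406 to 1.43] in range 5. Slc8a1 went up steeply along it: in nephrectomy it had 3192 CPM in range 1, 18417 in range 2 and 86213.5 in range 3, where it peaked, and in sham 2007, 20614 and 70126. Trpv5 was near 0 in range 1 (6 UMIs in nephrectomy, 1 in sham) and highest in range 5, at 411 in nephrectomy and 279 in sham. Pvalb had 6 UMIs or fewer in nephrectomy and 8 or fewer in sham in each range from range 3 on, and Trpm6 and Trpm7 stayed high through range 2.

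Within these ranges Cnnm2 was lower in nephrectomy in 5 of 5, with ratios from 0.568 to 0.841 and every interval below 1. That held for 34 of the 5566 genes with at least 20 UMIs in each range (0.611%), and Cnnm2 was the 1 such gene among the 8 members measured so. Cnnm2 was counted far more often than that minimum, with its fewest UMIs in range 5 (84 in nephrectomy, 118 in sham). More UMIs make an interval clear of 1 easier to reach, and the share among genes counted as often was not computed. Trpv5 was higher in nephrectomy in 5 of 5 ranges, with ratios from 1.30 to 1.86, and its interval lay above 1 in 2 of them. Of 9635 genes with at least 20 UMIs in all and 1 in every range and library, 7.37% were higher in all 5, so a run of this kind was not rare. Calb1 had a ratio of 1.5 [1.42 to 1.58] in range 3 and 0.660 [0.614 to 0.710] in range 5. S100g had 1.62 [1.37 to 1.93] in range 2 and 0.680 [0.602 to 0.767] in range 5. Both buffers were thus lower in nephrectomy at the CNT end and higher in a range nearer the DCT end. Pvalb was lower in all 3 ranges with UMIs in both libraries, with ratios of 0.476 [0.284 to 0.813], 0.296 [0.165 to 0.514] and 0.476 [0.136 to 1.56]. The last of these rests on 6 nephrectomy and 8 sham UMIs, and its interval holds 1. Casr stood at 1.18 [0.711 to 2.03], 1.57 [0.913 to 2.78] and 1.03 [0.566 to 1.94] in ranges 1 to 3, and at 0.526 [0.324 to 0.866] and 0.612 [0.385 to 0.965] in ranges 4 and 5. Its interval lay above 1 in 0 of the 5 ranges. Trpm6 had 1.11 [1.01 to 1.22] in range 1, 0.865 [0.802 to 0.934] in range 2 and 0.789 [0.673 to 0.929] in range 4. The Trpm6 intervals in ranges 3 and 5 held 1. Trpm7 had 0.845 [0.783 to 0.912] in range 1, and its intervals in the other ranges held 1.

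Among the markers behind this order, the CNT marker Egfem1 had 435 CPM in nephrectomy and 36.7 in sham in DCT-like nuclei, and 7111 and 3966 in CNT-like nuclei. Abca13, a DCT marker, had 1898 in nephrectomy and 653 in sham in CNT-like nuclei. With both left out of the placing, an alternative chosen after seeing the data, Cnnm2 stayed lower in 5 of 5 ranges with every interval below 1 (0.508 to 0.836), and Trpv5 stayed higher in 5 of 5 (1.16 to 1.93).

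**Figure D3:**
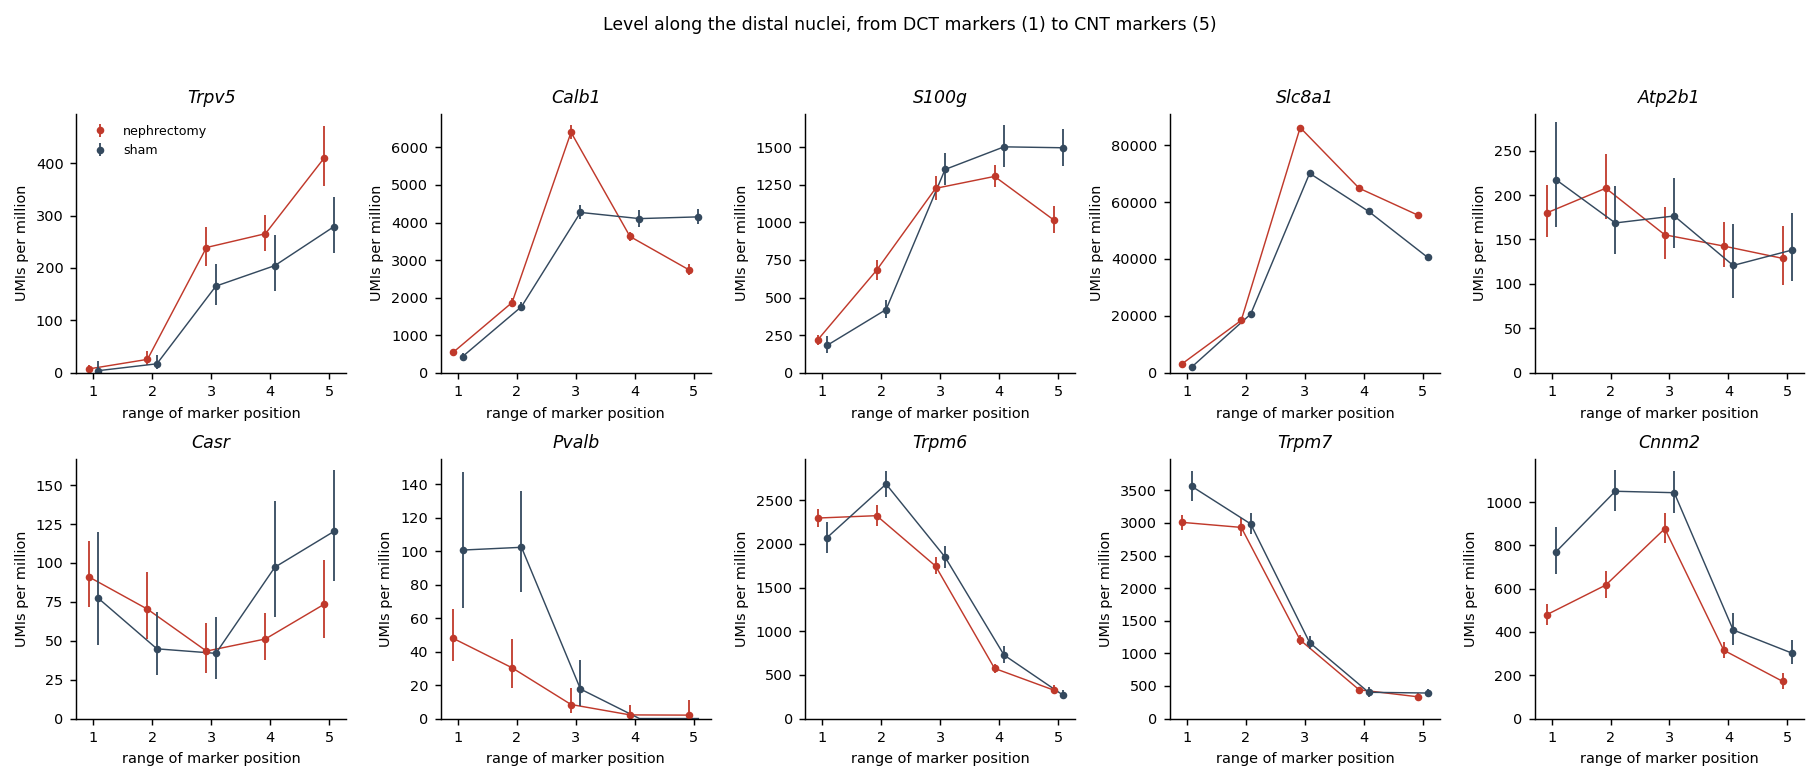
Level of each gene in CPM (linear axes from 0) over 5 ranges of the distal nuclei, ordered from DCT markers (1) to CNT markers (5). Red is nephrectomy, dark is sham, points are levels of the summed nuclei and vertical lines 95% Poisson intervals. The Cnnm2 points of nephrectomy lie below those of sham in all 5 ranges, and the Calb1 points cross between ranges 3 and 4.

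Outside the distal tubule, 4 of 8 members with at least 20 UMIs were higher in nephrectomy in principal-like nuclei, where 12% of 7179 genes were, and 0 of 8 were lower, where 16% were. With at least 100 UMIs, 1 of 5 was higher, against 7.34% of 2070 genes. Slc8a1 had 2920 CPM in nephrectomy and 1301 in sham, a ratio of 2.25 [2.03 to 2.49]. The others were Trpv5 at 3.26 [1.24 to 10.8] on 28 and 5 UMIs, Trpm6 at 2.83 [1.23 to 7.55] on 34 and 7, and Cnnm2 at 2.45 [1.35 to 4.75] on 59 and 14. Cnnm2 thus pointed the other way here than in the distal tubule. The classes were small, at 76 nephrectomy and 64 sham nuclei. One nephrectomy nucleus held 24.9% of the Slc8a1 UMIs, and without the 3 nuclei richest in it the ratio was 1.77. One nucleus also held 14 of the 28 Trpv5 UMIs in nephrectomy, and another 4 of the 5 in sham. In principal-like nuclei the 7 CNT markers summed to 7377 CPM in nephrectomy and 6284 in sham, with Egfem1 alone at 191 and 18.7. Scnn1b, Scnn1g and Hsd11b2 are among these 7 and also served as principal markers, so the sum does not measure CNT content alone. The part of the CNT markers in these ratios was not tested.

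In thick ascending limb-like nuclei 1 of 8 members was higher, where 9.18% of 11987 genes were, and 0 were lower, where 12.6% were. The higher one was Trpm6, with 90 UMIs in 32 of 360 nephrectomy nuclei and 7 UMIs in 7 of 393 sham nuclei. The ratio was 11.01 [5.13 to 28.2], and 4.46 when each nucleus had equal weight. The 9 nephrectomy nuclei with at least 3 Trpm6 UMIs carried 62 of the 90, and no sham nucleus reached 3. Those 9 nuclei held 670 UMIs of Slc12a1, the cotransporter of the thick ascending limb, and 2 of Slc12a3. The share of nuclei with a Trpm6 UMI was 8.89% in nephrectomy and 1.78% in sham, against 5.14% and 3.79% in proximal tubule-like nuclei, at median depths of 6895.5 and 5626 UMIs against 10389 and 9120. With nuclei thinned to 1000 UMIs the shares were 2.59% of 348 nephrectomy and 0.542% of 369 sham nuclei, against 0.716% and 0.599% in proximal tubule-like nuclei. The sham share was thus no higher than in proximal tubule-like nuclei, thinned or not.

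In B-type intercalated-like nuclei Slc8a1 had a ratio of 0.183 [0.167 to 0.201] and Trpm6 of 0.301 [0.185 to 0.488], on 52 nephrectomy and 34 sham nuclei. Leaving out the 3 nuclei richest in each gene turned these to 1.07 and 1.54, so a few nuclei set them. Over the whole libraries 2 of 10 members were higher in nephrectomy, Trpv5 at 1.71 [1.49 to 1.96] and Slc8a1 at 1.51 [1.495 to 1.52], where 9.58% of 17401 genes were. One was lower, Pvalb at 0.607 [0.476 to 0.773], where 10.7% of genes were. Nephrectomy also held the larger share of DCT-like and CNT-like nuclei, and in sums over a library a larger share of cells and more RNA per cell cannot be told apart.

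Other genes of the pathway were taken as 4 lists. Of 8 measured genes of transcellular calcium transport (15 listed), 0 were higher and 2 lower in DCT-like nuclei, with a median log2 ratio of -0.49, where 9.85% and 13.1% of all genes were higher and lower. The lower ones were Atp2b2, a calcium pump gene, at 0.353 [0.234 to 0.527] on 43 nephrectomy and 64 sham UMIs, and S100a10, whose protein helps carry TRPV5 to the membrane, at 0.423 [0.240 to 0.741] on 25 and 31 UMIs. Atp2b2 had 19.7 CPM in nephrectomy and 55.9 in sham there, against 172 and 213 in CNT-like nuclei. By marker position its ratios were 0.271, 0.259, 0.547 and 0.471 in ranges 1 to 4, and 1.37 [1.04 to 1.81] in range 5. In CNT-like nuclei 1 of 8 was higher and 1 lower, where 13.5% and 13.9% of all genes were. The lower one was Atp2b4, another pump gene, with 153 CPM in nephrectomy and 297 in sham, a ratio of 0.517 [0.426 to 0.627], though it stood at 0.933 after thinning. The higher one was S100a10 on 20 nephrectomy and 6 sham UMIs, whose ratio of 1.72 [0.667 to 5.24] turned below 1 when nuclei were split by marker UMIs (0.962).

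Among 15 measured genes of calcium and phosphate hormone signalling (20 listed), 3 were higher and 2 lower in DCT-like nuclei (all genes: 9.85% and 13.1%). In CNT-like nuclei 2 of 14 were higher and 4 lower (all genes: 13.5% and 13.9%). Kl, which codes for klotho, the coreceptor of FGF23, had 501 CPM in nephrectomy and 1008 in sham in DCT-like nuclei, a ratio of 0.498 [0.458 to 0.541]. In CNT-like nuclei it had 939 and 1659, a ratio of 0.566 [0.523 to 0.612]. Fgfr2, a fibroblast growth factor receptor gene, had 596 and 1061 in CNT-like nuclei, a ratio of 0.562 [0.509 to 0.621]. Cyp24a1, the enzyme that breaks down active vitamin D, was sparse but higher in both, at 4.198 [1.91 to 10.9] on 56 nephrectomy and 7 sham UMIs in DCT-like nuclei and 4.52 [1.62 to 17.5] on 35 and 4 in CNT-like nuclei. Esr1, the estrogen receptor alpha gene, had a ratio of 2.34 [1.46 to 3.90] in DCT-like nuclei. Rxra, the partner receptor of the vitamin D receptor, had 24 and 5 UMIs in CNT-like nuclei and a ratio of 2.48 [0.928 to 8.32], an interval that holds 1.

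Of 22 measured genes of magnesium transport and its regulators (27 listed), 0 were higher and 0 lower in DCT-like nuclei, where 9.85% and 13.1% of all genes were. Cnnm1 and Cnnm4, paralogs of Cnnm2, stood at 1.45 [1.08 to 1.98] and 1.42 [0.665 to 3.28] there. In CNT-like nuclei 1 of 22 was higher and 6 were lower, where 13.5% and 13.9% of all genes were. The higher one was Tusc3, which codes for a subunit of an oligosaccharyltransferase, at 1.76 [1.01 to 3.23] on 58 nephrectomy and 17 sham UMIs. Its ratio turned to 0.463 after thinning, which left far fewer UMIs of it. Arl15, whose protein binds CNNM proteins, had 4220 CPM in nephrectomy and 3297 in sham, a ratio of 1.28 [1.22 to 1.34], short of the 1.5-fold limit. Slc41a1, a magnesium exchanger gene, had 19 and 20 UMIs there and a ratio of 0.491 [0.248 to 0.969]. Egf, the hormone that stimulates TRPM6, had a ratio of 0.188 [0.147 to 0.239] in CNT-like nuclei, which moved to 0.655 without the 3 richest nuclei of each library. Thick ascending limb markers were also lower in these nuclei, at the 188 and 454 CPM given for Casr, and their part in the Egf ratio was not tested.

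Of 6 measured genes of the paracellular route of the thick ascending limb (10 listed), 1 was higher and 0 lower in DCT-like nuclei (all genes: 9.85% and 13.1%), and 0 were higher and 2 lower in CNT-like nuclei (all genes: 13.5% and 13.9%). The higher one was Ptger3, a prostaglandin receptor gene, at 1.83 [1.23 to 2.78] on 115 nephrectomy and 33 sham UMIs. Its ratio turned to 0.850 after thinning, which left far fewer UMIs of it. The lower ones were Rragd, a GTPase gene, at 0.530 [0.382 to 0.735] on 79 and 77 UMIs, and Ptger3 at 0.554 [0.249 to 1.24] on 15 and 14 UMIs. Rragd stood at 1.255 after thinning, likewise on far fewer UMIs. In thick ascending limb-like nuclei themselves 0 of 8 genes of this list were higher and 0 lower, where 9.18% and 12.6% of all genes were. There the claudin genes Cldn16 and Cldn19, which form the pore for calcium and magnesium between cells, had ratios of 0.922 [0.729 to 1.17] and 0.795 [0.646 to 0.978].

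**Figure D4:**
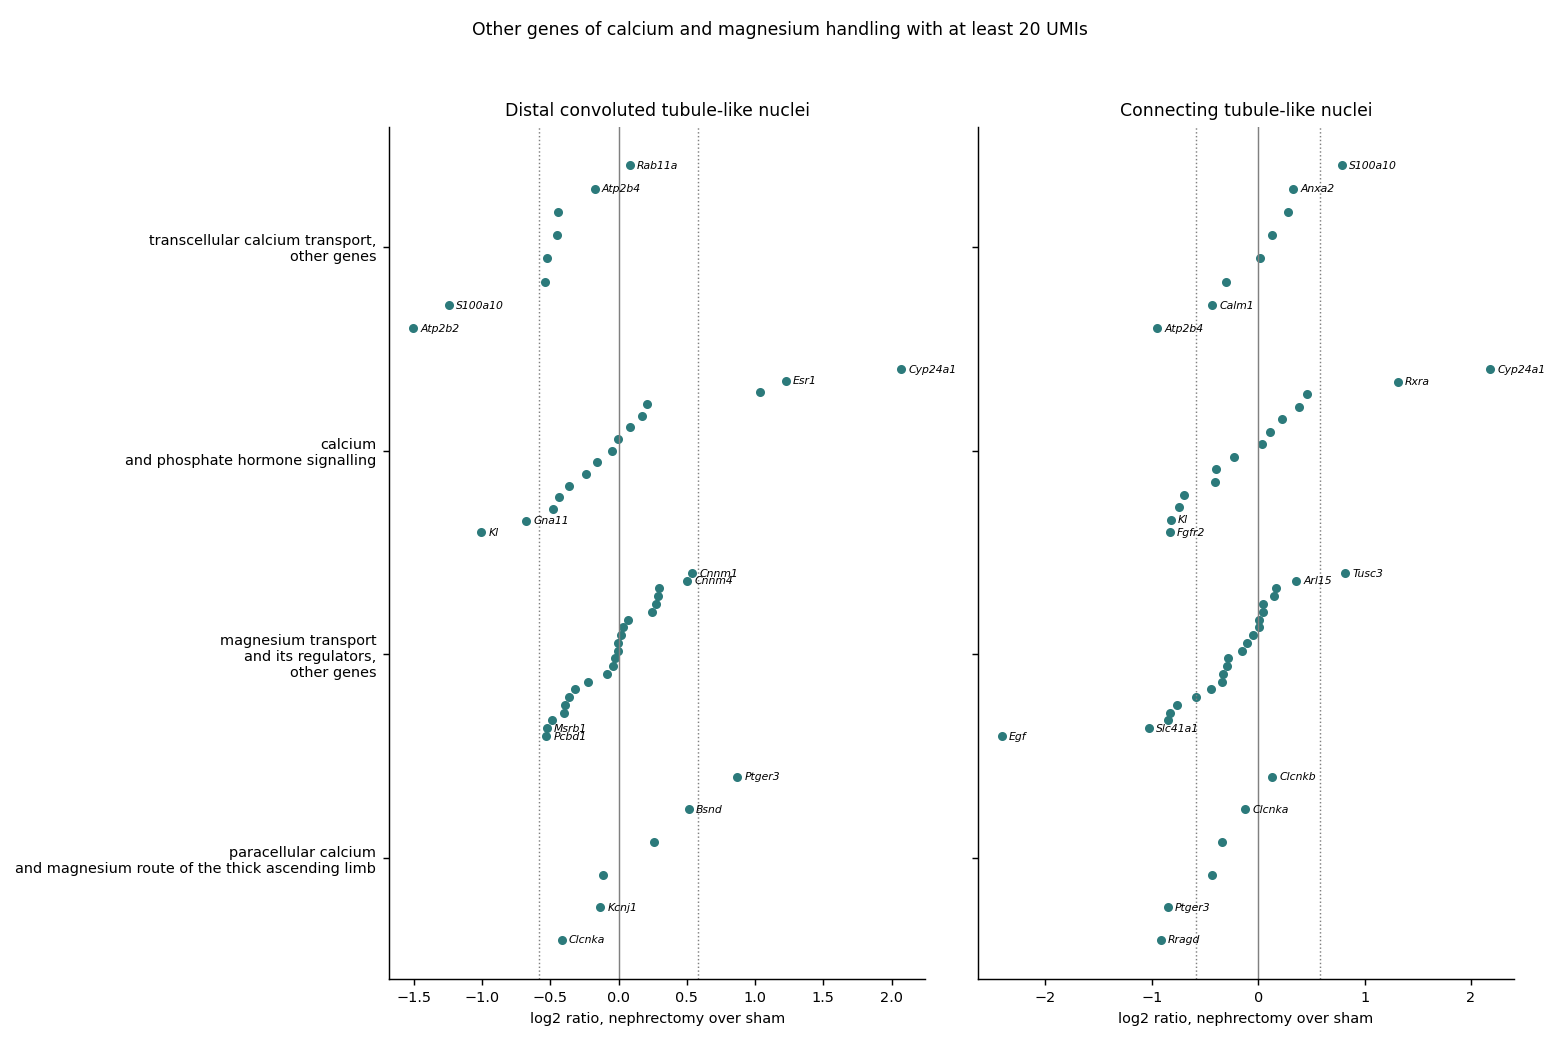
Log2 ratio of CPM, nephrectomy over sham, for genes of 4 lists with at least 20 UMIs in DCT-like (left) and CNT-like nuclei (right). Each point is 1 gene, the solid line is no difference, the dotted lines mark 1.5-fold, and the 2 genes at each end of a list are named. Cyp24a1 lies farthest to the right in both panels, and all points of the magnesium list lie between the dotted lines on the left.

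The genes most like 3 of the members across 20 profiles (10 classes in 2 libraries, which share depth and free RNA) were ranked by Pearson correlation of log2(CPM + 1) over 13889 genes. Trpv5 was most like Calb1 (r = 0.949) and Slc8a1 (0.939), then Egfem1 (0.882), Gm26618 (0.880) and Phactr1 (0.879). S100g was most like Slc8a1 (0.875), Pgam2 (0.873), Klk1 (0.860), Clu (0.853) and Calb1 (0.811). Trpm6 was most like Slc8a1 (0.895), Sall3 (0.885), Tsc22d1 (0.883), Klhl3 (0.879) and Calb1 (0.868). Calb1 and Slc8a1 were thus in the first 5 for all 3. These are descriptions, since several of these genes also helped to define the classes.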

How the data were processed

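Single-nucleus RNA was counted on the 10x Chromium platform. The deposited matrices hold UMI counts per gene and barcode, made with Cell Ranger against mm10: version 7.1.0 per the submitters' processing notes, 7.0.1 per the file headers. Whether introns were counted, and whether strand was used, is not given in the sources used here.

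The deposited counts were taken as they are. Nuclei with under 200 genes or over 10% mitochondrial UMIs were left out (112 nephrectomy, 109 sham), as were likely doublets (124 nephrectomy, 129 sham) by score and in 2 clusters, since Scrublet's own threshold called 1 and 0. Nuclei were clustered with scanpy 1.11.5 and Leiden (leidenalg 0.10.2, resolution 1, 2000 variable genes, 30 components), with the members and 72 listed pathway genes kept out. Clusters were named from marker scores; this rule was revised after a first rule left the DCT and CNT clusters unnamed. Of 25 clusters, 7 stayed unnamed and held 18.7% of nephrectomy and 21.6% of sham nuclei.

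UMIs were summed per class and library and divided by the class total, as CPM (Python 3.11.15, pandas 2.3.3, scipy 1.17.1). With 1 library per group, nothing was tested: a gene with at least 20 UMIs counted as higher or lower past 1.5-fold. The named genes are the 10 members, the 2 highest and 2 lowest genes of each list in each distal class, the genes most like Trpv5, S100g and Trpm6, and Cldn16, Cldn19, Egfem1, Abca13 and Sgk1, named after their values were seen. Some items that these rules cover are not reported here. The members, lists and rules were chosen with earlier results of these data known. The scripts were tested on simulated data. edgeR 4.0.16 gave only TMM scaling factors, as an alternative.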

Additional observations from a re-analysis of the deposited data

Results flagged for a closer look

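Among the 10 members and 72 listed genes, 4 stood on opposite sides of 1 in the 2 distal classes. Their intervals do not reach 1 in either class, and in each case the difference between the classes was not tested. The share of all genes that do so was not counted, so how unusual this is cannot be said. Calb1 had a nephrectomy over sham ratio of 1.21 in DCT-like and 0.782 in CNT-like nuclei. Casr had 1.62 in DCT-like and 0.493 in CNT-like nuclei. By marker position it had 1.18, 1.57 and 1.03 in ranges 1 to 3, each with an interval that holds 1, and 0.526 and 0.612 in ranges 4 and 5. Sgk1, which codes for a kinase induced by aldosterone, had 2.05 in DCT-like nuclei on 39 nephrectomy and 10 sham UMIs, and 0.596 in CNT-like nuclei on 120 nephrectomy and 104 sham UMIs. Egf had 1.23 in DCT-like and 0.188 in CNT-like nuclei, the second of which was 0.655 without the 3 nuclei richest in Egf. By marker position it had 0.985 [0.933 to 1.04] in range 1, 1.20 [1.12 to 1.29] in range 2, 0.622 [0.548 to 0.705] in range 3, and 0.135 and 0.383 in ranges 4 and 5. The thick ascending limb markers summed to 348 CPM in nephrectomy and 492 in sham in DCT-like nuclei, and to 188 and 454 in CNT-like nuclei, and their part in the Casr and Egf ratios was not tested.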

How the results depend on the processing

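Each ratio was recomputed under 14 alternatives, and 3 more chosen after seeing the data, as far as each applied. Of 1263 recomputed ratios of single genes, 98 lay on the other side of 1 from the reported ratio, and in 20 of these the reported ratio was past 1.5-fold. Apart from those 20, whose values follow, 1082 stayed within their counting interval and 161 moved past it. Thinning to 1000 UMIs gave Trpv5 0.896 in proximal tubule-like nuclei, Pvalb 1.27, Gna11 1.06 and Ptger3 0.850 in DCT-like nuclei, S100a10 0.257, Rxra 0.386, Tusc3 0.463 and Rragd 1.255 in CNT-like nuclei, Trpm6 1.05 in mural-like nuclei and Pvalb 1.246 in the whole library. Several of these thinned ratios rest on few UMIs. After thinning, Trpv5 was seen in 2 nephrectomy and 2 sham proximal tubule-like nuclei, and Pvalb in 12 and 6 DCT-like nuclei. Thinned ratios of sparse genes therefore carry a wide counting error, and no interval is given for them. S100a10 in CNT-like nuclei was 0.962 when distal nuclei were split by marker UMIs, and 0.807 when Egfem1 and Abca13 were left out of that split. Without the 3 richest nuclei, Slc8a1 was 1.59 in A-type and 1.07 in B-type intercalated-like nuclei, and Trpm6 1.54 in the B-type. Cnnm2 in podocyte-like nuclei was 0.933 with doublets kept. Slc8a1 in endothelial-like nuclei was 0.275 at Leiden resolution 0.5. In mural-like nuclei resolution 2 gave Calb1 2.21 and Slc8a1 2.16, and equal weight per nucleus gave Calb1 1.09. The cause was not tested. Free RNA, estimated from proximal tubule markers, was 44.8% of mural-like UMIs in nephrectomy and 79.9% in sham. It was 26.8% and 6.30% in B-type intercalated-like nuclei, and 16.5% and 10.9% in CNT-like nuclei. In DCT-like nuclei it was 7.81% and 7.57%. Its subtraction was among the alternatives.

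Counts of members past the limit are small and moved easily. In DCT-like nuclei the higher count of 1 became 2 under thinning, the marker split without Egfem1 and Abca13, leaving out the 3 richest nuclei, and a lower fold limit, and 0 without the deepest 5% of nuclei, under the marker split, and at 2-fold. The lower count of 1 became 0 under thinning and 2 under equal weight, free RNA subtraction, both marker splits, a lower fold limit, and without the deepest 5% or the 3 richest nuclei. In CNT-like nuclei the higher count of 0 became 1 under thinning and at the lower limit. The lower count of 2 became 1 under TMM, median-of-ratios scaling, doublets kept, both other resolutions, equal weight, free RNA subtraction, both marker splits and a 2-fold limit. In the whole library the higher count of 2 became 1 under TMM, doublets kept, thinning, equal weight and without the deepest 5%, 4 at the lower limit and 0 at 2-fold, and the lower count of 1 became 0 under equal weight and at 2-fold and 2 at the lower limit.

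The counts with no filter on nuclei were made for the whole library alone. No paired analysis was possible because each group has 1 library. Intervals cover counting error only: animals, surgery and library cannot be told apart, and 38 of 598 distal nuclei change segment with the marker split.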
